A study of Mus musculus with 6 samples.

Results

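Red blood cells and their precursors carry a small set of very abundant miRNAs, of which mmu-miR-451a, mmu-miR-144-3p, mmu-miR-144-5p and mmu-miR-486a-5p (written below without the species prefix) were followed here in mouse hepatoma tumours. They were taken as the 4 array entries with these names, out of 1881 mouse miRNAs on the array, and all 4 were on it. Of these, 2 (miR-451a and miR-486a-5p) were bright enough for the test between groups, which ran over 388 miRNAs. The miR-144 arms were detected on 4 of the 6 arrays and are given as values.

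The tumours grew from Hepa1-6 cells, a mouse hepatoma line, inoculated into the right flank of C57BL/6 mice. Tumours of 3 mice given GLE (an agent named only by these letters), with 0.023 g as the daily total stated for a 10 g animal, were compared with tumours of 3 mice of the model group. The model mice are labelled as untreated, and the protocol states 0.2 ml of 0.9% NaCl once a day for 28 days. The age entry of all 6 samples reads 28d. Each array held the total RNA of 1 tumour, so the host's blood, vessels and stroma were measured together with the tumour cells, and no source used here says whether tumours were rinsed of blood. All 6 arrays were on 1 slide and in 1 scan. The array names hold 2 position numbers. The first was 1 for all GLE arrays and 2 for all model arrays, so that position and group cannot be told apart. The second was 1, 3 and 4 for replicates 1 to 3 in both groups.

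miR-144 and miR-451a are cut from a single precursor transcript that the erythroid factor GATA1 switches on during red cell formation. miR-451a is unusual in that Dicer does not make it: its short hairpin is cut by Argonaute 2 itself. miR-486 lies within Ank1, the gene of the erythrocyte membrane protein ankyrin, and is made in red cell precursors and in muscle. Mature red cells keep these miRNAs although they have no nucleus, and miR-451a is widely used to trace red cells in serum and plasma.

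The RefSeq sequences (GRCm38.p6, plus strand) are shown because they set the members apart: each has its own seed, bases 2 to 8, in capitals. No other mature miRNA in that table had any of these 3 seeds. miR-451a lies at chr11:78073186-78073207, miR-144-3p at chr11:78073047-78073066 and miR-144-5p at chr11:78073010-78073032.
miR-451a: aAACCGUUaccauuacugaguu
miR-144-3p: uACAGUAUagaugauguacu
miR-144-5p: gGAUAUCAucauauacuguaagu

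Both hairpins are on the plus strand of chromosome 11, and 99 bases separate the end of Mir144 (chr11:78073005-78073070) from the start of Mir451a (chr11:78073170-78073241). In the RefSeq gene table only Mir451b overlaps Mir451a, and nothing overlaps Mir144. They are shown with their mature miRNAs in capitals, since the miR-144 hairpin gives an arm on each side of its loop, while miR-451a spans its stem and runs on into the loop. In the Mir451a hairpin, bases 2 to 17 of the 22 bases of miR-451a pair with the other arm.
Mir144: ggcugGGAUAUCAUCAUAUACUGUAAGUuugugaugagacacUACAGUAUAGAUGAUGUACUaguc
Mir451a: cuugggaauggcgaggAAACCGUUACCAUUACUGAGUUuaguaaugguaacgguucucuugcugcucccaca

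The array measured each member with 2 probes of different length, read from the deposited files and written as DNA. The longer probe is given for each member, since its letters show what it can tell apart. The first 3 are the full complements of the mature miRNAs above.
miR-451a probe: aactcagtaatggtaacggttt
miR-144-3p probe: agtacatcatctatactgta
miR-144-5p probe: acttacagtatatgatgatatcc
miR-486a-5p probe: ctcggggcagctca
The miR-486a-5p probe has 14 bases, and the deposited files list it for miR-486a-5p and for miR-3107-5p, whose gene Mir3107 overlaps Mir486, so the arrays do not separate these copies. RefSeq places Mir486 at chr8:23142555-23142682 (GRCm38.p6), inside Ank1.

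mmu-miR-451a was measured well above background on every array. On the 22-base probe its mean intensity over the spots was 2650, 2369 and 835 units in the GLE tumours 1 to 3 (numbered by replicate), against 2115, 1151 and 3101 units in the model tumours 1 to 3. Spots of a probe on 1 array varied little, with a coefficient of variation of 1.05% to 3.29% over both probes. The values that follow are log2 signals after each array was divided by its own 75th percentile, so 0 marks that percentile. On this scale the mean of both miR-451a probes was 3.36, 2.36 and 1.45 in the GLE tumours 1 to 3, and 2.42, 1.98 and 3.55 in the model tumours 1 to 3. One tumour of each group, GLE replicate 1 and model replicate 3, stood high, and GLE replicate 3 was the lowest. The highest and lowest tumours differed by 2.10, which is 4.28-fold, a range larger than that of 366 of the 388 tested miRNAs. The 2 probes gave the same picture: the longer one exceeded the shorter by 0.66 to 0.69 on every array. In summed intensity of the 636 probes detected on all arrays, miR-451a took 1.06%, 0.566% and 0.291% in the GLE tumours 1 to 3 and 0.617%, 0.447% and 1.17% in the model tumours 1 to 3.

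mmu-miR-144-3p, the arm on the 3′ side of the neighbouring hairpin, was much closer to background. Its 20-base probe gave 34.0, 29.1 and 10.2 intensity units in the GLE tumours 1 to 3, against 29.2, 12.8 and 52.0 units in the model tumours 1 to 3. It was detected on 4 arrays and missed on GLE replicate 3 and model replicate 2, which were also the 2 arrays with the lowest miR-451a. In scaled log2 signal, with a floor of −4.25 set by the dimmest detected probes, its values were −2.66, −3.68 and −4.25 in the GLE tumours 1 to 3 and −3.44, −4.22 and −2.09 in the model tumours 1 to 3. GLE replicate 3 was at the floor, and model replicate 3 and GLE replicate 1 were again the highest.

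mmu-miR-144-5p, the other arm of that hairpin, was detected on the same 4 arrays, and only by its 23-base probe. That probe gave 18.5, 18.7 and 4.86 intensity units in the GLE tumours 1 to 3, against 16.8, 8.54 and 22.0 units in the model tumours 1 to 3. The 22-base probe, which lacks the base that pairs with the first base of the miRNA, stayed between 0.441 and 3.62 units and was detected on 0 arrays. With 1 of 2 probes at the floor, the averaged value of miR-144-5p moved by 0.50 over the 6 arrays.

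mmu-miR-486a-5p was detected on all 6 arrays. Its 14-base probe gave 98.7, 91.3 and 44.7 intensity units in the GLE tumours 1 to 3, against 90.7, 65.8 and 112 units in the model tumours 1 to 3. The scaled log2 values were −1.36, −2.29 and −2.65 in the GLE tumours 1 to 3 and −2.10, −2.09 and −1.21 in the model tumours 1 to 3. The same tumours were highest and lowest as for miR-451a, over a 2.70-fold range. The partner arms miR-486a-3p and miR-486b-3p, and miR-451b, whose gene overlaps Mir451a, were each detected on 0 arrays.

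**Figure D1:**
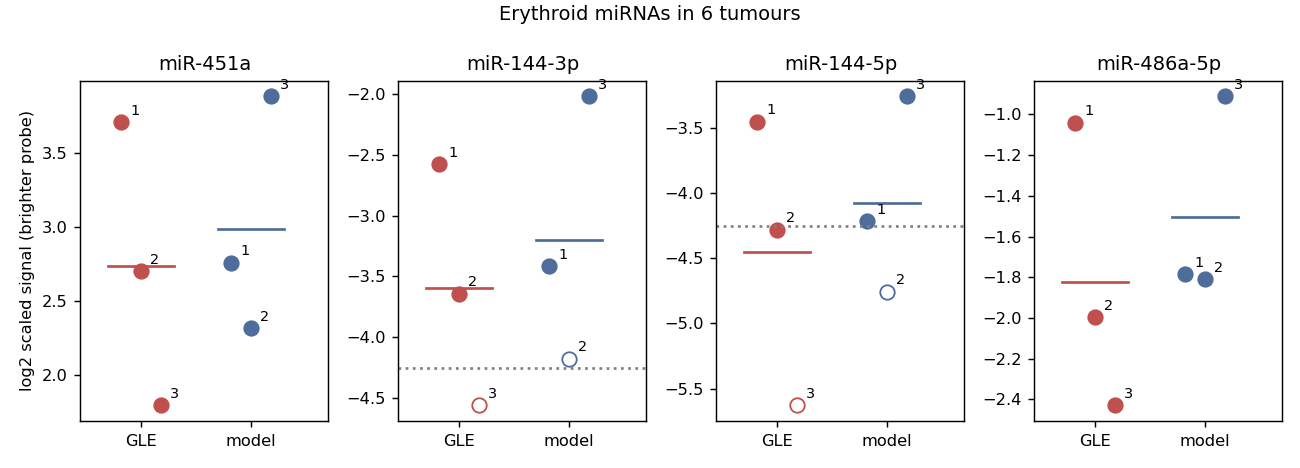
Scaled log2 signal (vertical axis, one scale per panel, before the floor is applied) of the brighter probe of each member in GLE tumours (red, left) and model tumours (blue, right). Numbers are replicates, bars are group means, open points were not detected, and the dotted line is the floor of −4.25; GLE replicate 1 and model replicate 3 are the highest of their groups in every panel.

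The groups overlapped in all 4 members, while in 26 of the 388 tested miRNAs, or 6.70%, they did not. miR-451a averaged 2.39 ± 0.96 in the GLE group, against 2.65 ± 0.81 in the model group (SD, n = 3 each), a difference of −0.26 ± 0.56 (GLE minus model, SE of the limma fit). That is a level 0.836-fold that of the model, with a 95% interval of 0.332-fold to 2.11-fold, and the adjusted p in limma was 0.950. miR-486a-5p averaged −2.10 ± 0.67 in the GLE group, against −1.80 ± 0.51 in the model group (SD, n = 3 each). Its difference of −0.30 ± 0.39 (SE) is a fold of 0.814 with a 95% interval of 0.427-fold to 1.55-fold (limma adjusted p = 0.946). For the miR-144 arms the differences of the group means were −0.28 for miR-144-3p and −0.038 for miR-144-5p, given without a test because neither was detected throughout a group. They varied with the setting, and the cause was not tested. Over the other settings with all arrays, miR-144-3p ran from −0.49 in the authors' deposited table to −0.068. The difference of miR-144-5p ran from −0.49 with no floor to 0.096 in the authors' deposited table. Of the 2 tested members 0 passed limma's test at an adjusted p of 0.05, and 0 had an unadjusted p under 0.05. Over all tested miRNAs 0 passed, or 0%, and 6 (1.55%) had an unadjusted p under 0.05.

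The sign of the miR-451a difference rested on single tumours. Without GLE replicate 3 it was 0.21, and without model replicate 3 it was 0.19. Without GLE replicate 1 it was −0.74, without GLE replicate 2 it was −0.24, without model replicate 1 it was −0.37 and without model replicate 2 it was −0.59. For miR-144-3p the corresponding values were 0.081 without GLE replicate 3 and 0.30 without model replicate 3, and miR-486a-5p came to −0.023 and −0.0040 in those omissions, and to −0.67 without GLE replicate 1. The 95% intervals were −1.59 to 1.07 for miR-451a and −1.23 to 0.63 for miR-486a-5p. They leave room for an increase of about the SD between tumours and for a decrease larger than that SD. A difference within these limits could not be resolved with 3 arrays a group.

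**Figure D2:**
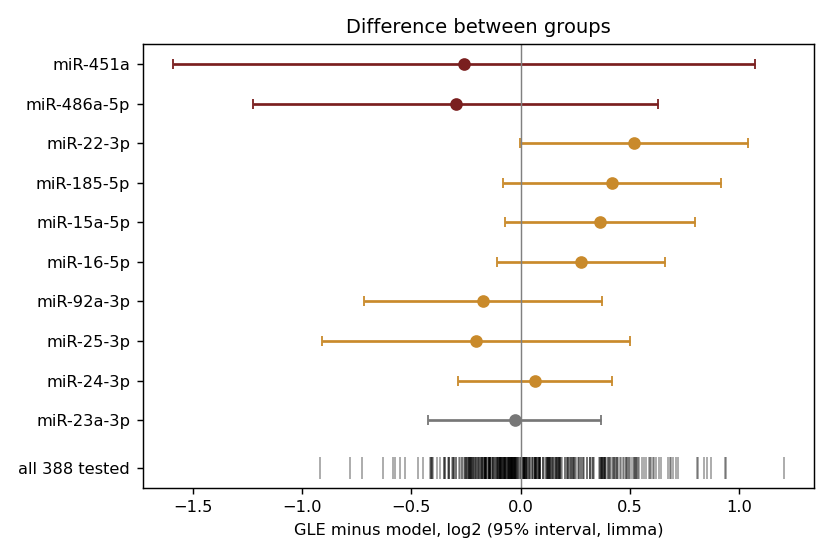
Difference between GLE and model tumours (horizontal axis, log2) with 95% intervals from limma, 3 arrays per group, for the tested members (dark red), the tested miRNAs of the other red cell list (ochre) and miR-23a-3p (grey). The lowest line marks all 388 tested miRNAs; the intervals of miR-451a (−1.59 to 1.07) and miR-486a-5p (−1.23 to 0.63) both span 0.

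While the groups did not separate, the members varied together from tumour to tumour. miR-451a and miR-144-3p, the neighbours on chromosome 11, put the 4 arrays on which miR-144-3p was detected in the same order, from GLE replicate 2 through model replicate 1 and GLE replicate 1 to model replicate 3 as the highest. The other two, GLE replicate 3 and model replicate 2, were the lowest for both, but miR-144-3p was not detected there, so their order in it was not measured. Their Pearson r was 0.97 (n = 6 arrays, exact permutation p = 0.00139, adjusted p = 0.00833 over the 6 pairs of members). Spearman's rho was 1 (exact permutation p = 0.00278, adjusted p = 0.0167), a value that ranks those undetected arrays. With both tied at the floor, an alternative added after the values were seen, rho was 0.99 (exact permutation p = 0.00556, adjusted p = 0.025, n = 6) and r stayed at 0.97. Without the 2 arrays farthest from the median, GLE replicate 1 and model replicate 3, r was 0.88 over 4 arrays. With each group's mean taken off, a check added after the values were seen, r was 0.97.

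miR-486a-5p, from chromosome 8, followed miR-451a with an r of 0.96 (n = 6, exact permutation p = 0.00833, adjusted p = 0.0125), and with 0.77 once the same 2 arrays were left out. Spearman's rho was 0.83 (exact permutation p = 0.0583, adjusted p = 0.0667). Model replicate 2 was the second lowest array for miR-451a and the fourth lowest for miR-486a-5p. That rank was a near tie, with miR-486a-5p at −2.09 in model replicate 2 and −2.10 in model replicate 1. In unscaled intensity model replicate 2 was the second lowest array on both miR-486a-5p probes. The 2 arms of miR-144 had an r of 0.94 (n = 6, exact permutation p = 0.00833, adjusted p = 0.0125) and a rho of 0.94 (exact permutation p = 0.0167, adjusted p = 0.0333), with an r of 0.76 without the 2 arrays. miR-144-5p was at the floor on 3 of the 6 arrays (GLE replicates 2 and 3 and model replicate 2), so these values and those of its other pairs include floored values that have no order among themselves.

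The other pairs had a lower r over the 4 arrays without the 2 high tumours. For miR-451a with miR-144-5p, r was 0.91 (n = 6, exact permutation p = 0.00833, adjusted p = 0.0125; rho = 0.94, exact permutation p = 0.0167, adjusted p = 0.0333) and 0.55 without them. For miR-144-3p with miR-486a-5p, r was 0.92 (n = 6, exact permutation p = 0.0194, adjusted p = 0.0194; rho = 0.83, exact permutation p = 0.0583, adjusted p = 0.0667) and 0.48 without them. For miR-144-5p with miR-486a-5p, r was 0.94 (n = 6, exact permutation p = 0.0167, adjusted p = 0.0194; rho = 0.82, exact permutation p = 0.0667, adjusted p = 0.0667) and 0.47 without them. Within a group there are 3 arrays, too few for a correlation.

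**Figure D3:**
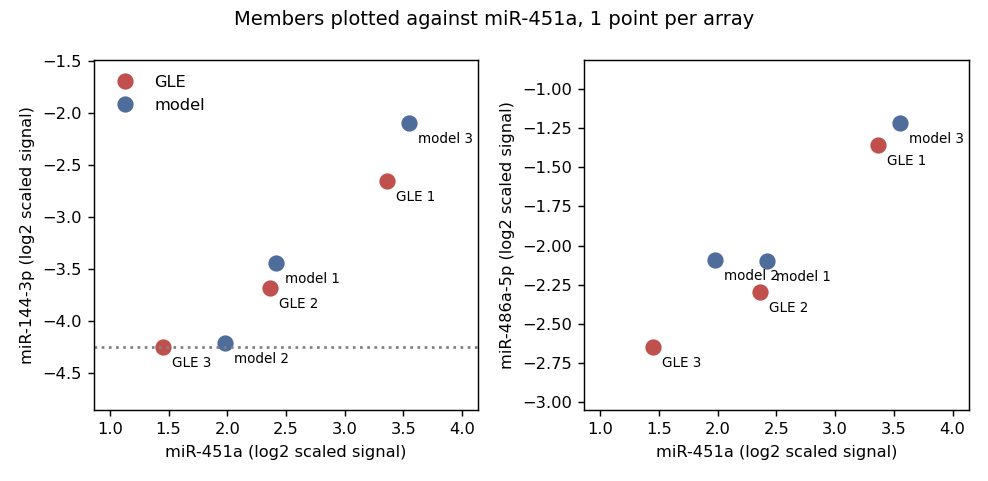
Scaled log2 signal of miR-144-3p (left panel) and miR-486a-5p (right panel) on the vertical axis against that of miR-451a on the horizontal axis, 1 point per array, GLE in red and model in blue. The dotted line in the left panel is the floor, and miR-144-3p was not detected on GLE replicate 3 and model replicate 2. GLE replicate 1 and model replicate 3 are highest on both axes of both panels. In the right panel model replicate 2 lies above GLE replicate 2 although its miR-451a is lower.

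Arrays differed in brightness, and the 2 with the most scaled miR-451a had the lowest 75th percentiles: 203 intensity units in GLE replicate 1 and 211 in model replicate 3. The remaining GLE arrays had 364 (replicate 2) and 241 (replicate 3), and the remaining model arrays had 313 (replicate 1) and 231 (replicate 2). Between 378 and 458 miRNAs were detected per array. In unscaled intensity, model replicate 3 and GLE replicate 1 were still the brightest for miR-451a, miR-144-3p and miR-486a-5p. With no scaling between arrays, r with miR-451a was 0.97 for miR-144-3p and 0.99 for miR-486a-5p.

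miR-451a was then set against the remaining tested miRNAs, as a description without a test. Of 387, miR-486a-5p was the most like it over the 6 arrays, followed by miR-5122 (r = 0.95), miR-3968 (r = 0.94), miR-202-3p (r = 0.94) and miR-484 (r = 0.93). miR-144-3p, which was too dim to be tested, had a higher r with miR-451a than any of the 387. The median r of the 387 was 0.018, the middle 95% ran from −0.65 to 0.90, and 10 of them, or 2.58%, had an r over 0.9. These values share the arrays and their scaling. Among the 5 closest, miR-486a-5p had the widest range: miR-5122 lay at −0.12, −0.46 and −0.82 in the GLE tumours 1 to 3 and at −0.30, −0.40 and 0.069 in the model tumours 1 to 3.

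**Figure D4:**
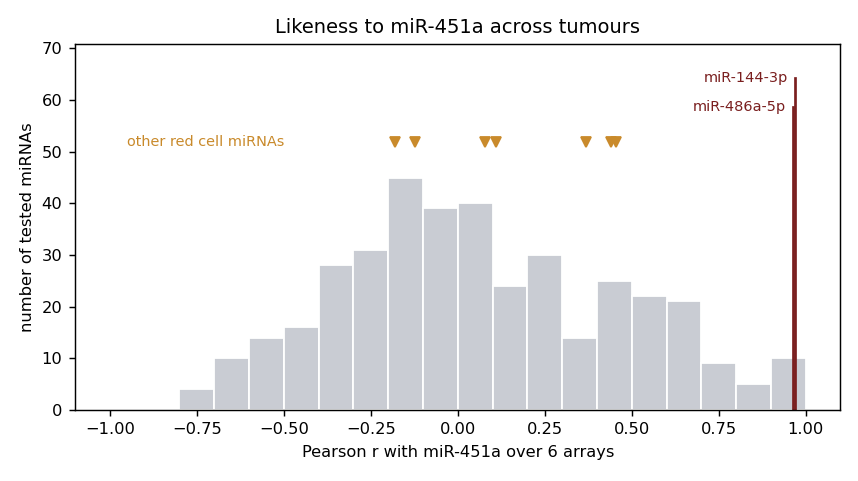
Number of tested miRNAs (vertical axis) by Pearson r with miR-451a over 6 arrays (horizontal axis, bins of 0.1). Dark red lines mark miR-144-3p (0.97) and miR-486a-5p (0.96), and ochre triangles mark the 7 tested miRNAs of the other red cell list, which lie between −0.18 and 0.46.

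Other miRNAs known from red cells or red cell formation showed no correlation with miR-451a that passed the test over all 6 tumours. The list held 12 names, of which 7 were tested, and their r with miR-451a ran from −0.18 to 0.46 (smallest adjusted p = 0.874 over 12 relations, exact permutation, n = 6). These values depended on the 2 high tumours: over the other 4 arrays r was 0.96 for miR-25-3p, 0.90 for miR-92a-3p and 0.58 for miR-24-3p, and −0.81 for miR-22-3p, −0.71 for miR-185-5p, −0.71 for miR-15a-5p and −0.57 for miR-16-5p. With each group's mean taken off, r over all 6 arrays ran from −0.075 for miR-22-3p to 0.59 for miR-24-3p, given without a test. For miR-16-5p it was 0.45, against 0.11 before. Between the groups, 0 of the 7 passed limma's test in either direction, 5 were at a positive difference (198 of the 388 tested), and the median was 0.28, against 0.0078 over all tested miRNAs. The largest statistics belonged to miR-22-3p at 0.52 ± 0.22, miR-185-5p at 0.42 ± 0.21, miR-15a-5p at 0.36 ± 0.18 and miR-16-5p at 0.28 ± 0.16 (SE, limma adjusted p = 0.935 for each). miR-16-5p is abundant in red cells and in most other cells. It lay at 1.79, 1.59 and 1.79 in the GLE tumours 1 to 3 and at 1.46, 1.33 and 1.56 in the model tumours 1 to 3, a spread of 0.47 over the 6 tumours. Its groups did not overlap, nor did those of miR-22-3p, beside 6.70% of all tested miRNAs. miR-363-3p, miR-191-5p, miR-486a-3p and miR-486b-3p of that list were detected on 0 arrays, and miR-486b-5p has no entry of its own.

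miR-23a-3p, which red cells hold little of and which serves beside miR-451a to grade red cell breakage in serum, was steady. It lay at 2.07, 2.25 and 1.93 in the GLE tumours 1 to 3 and at 2.21, 2.12 and 2.00 in the model tumours 1 to 3. The log2 ratio of miR-451a to miR-23a-3p therefore spread as widely over the tumours (2.03) as miR-451a itself. It differed between the groups by −0.23 (GLE minus model, exact permutation p = 0.6, where 0.1 is the smallest possible). The ratio of miR-451a to miR-144-3p ranged over 0.55 and differed by 0.022 (exact permutation p = 0.9), and that of miR-451a to miR-486a-5p ranged over 0.69 and differed by 0.040 (exact permutation p = 0.9). The signs of these last differences turned under several settings.

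In a bulk piece, fewer cells of a type and less RNA per cell cannot be told apart, and markers of other cell types do not separate them. Marker miRNAs of other cell types were read on the same arrays as a description. The leukocyte list (6 of 6 tested) had its highest mean in GLE replicate 3, 1.07 above its mean over the arrays, where miR-451a was 1.07 below its own. Its r with miR-451a was −0.090 (exact permutation p = 0.874, adjusted p = 0.874, n = 6; rho = 0.029), and −0.85 over the 4 arrays without GLE replicate 1 and model replicate 3. Summed over the list, scaled signal ran from 5.79 to 16.6 in GLE tumours and from 4.78 to 7.56 in model tumours. The endothelial marker miR-126a-3p (1 of 2 tested) had an r of −0.21 with miR-451a (rho = −0.26) and of −0.66 over those 4 arrays, and the summed list ran from 3.00 to 4.18 in GLE tumours and from 2.39 to 2.83 in model tumours. The fibroblast and smooth muscle list (5 of 5 tested) had an r of −0.25 (rho = 0.086) and of −0.84 over those 4, with sums of 1.60 to 4.75 in GLE tumours and 1.38 to 2.13 in model tumours.

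Skeletal muscle, the other main source of miR-486, was checked with miR-1a-3p, miR-133a-3p, miR-133b-3p and miR-206-3p (4 of 4 tested). Their mean was 1.30 above its average in GLE replicate 1, where miR-486a-5p was 0.60 above its own. In model replicate 3, where miR-486a-5p was highest, the muscle list stood 0.13 above its average. In model replicate 2 the muscle list stood 0.27 above its average, while miR-486a-5p was below its own. In GLE replicates 2 and 3 and in model replicate 1 both were below their averages. The muscle list had an r of 0.52 with miR-451a (rho = 0.31) and of −0.39 without GLE replicate 1 and model replicate 3, and its summed signal ran from 1.95 to 6.92 in GLE tumours and from 1.19 to 2.98 in model tumours. The r of the muscle list with miR-486a-5p was not computed, and its part in the miR-486a-5p values was not tested. The hepatocyte list (2 of 3 tested) was highest in GLE replicate 2, 2.44 above its average, and had an r of −0.19 with miR-451a (rho = −0.26) and of 0.81 over those 4 arrays, with sums of 0.0978 to 1.47 in GLE tumours and 0.0898 to 0.398 in model tumours. miR-122-5p, the defining hepatocyte miRNA, was detected on 2 of the 6 arrays of these hepatoma tumours. None of these list means passed in the 12 relations with miR-451a (smallest adjusted p = 0.874, exact permutation, n = 6).

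**Figure D5:**
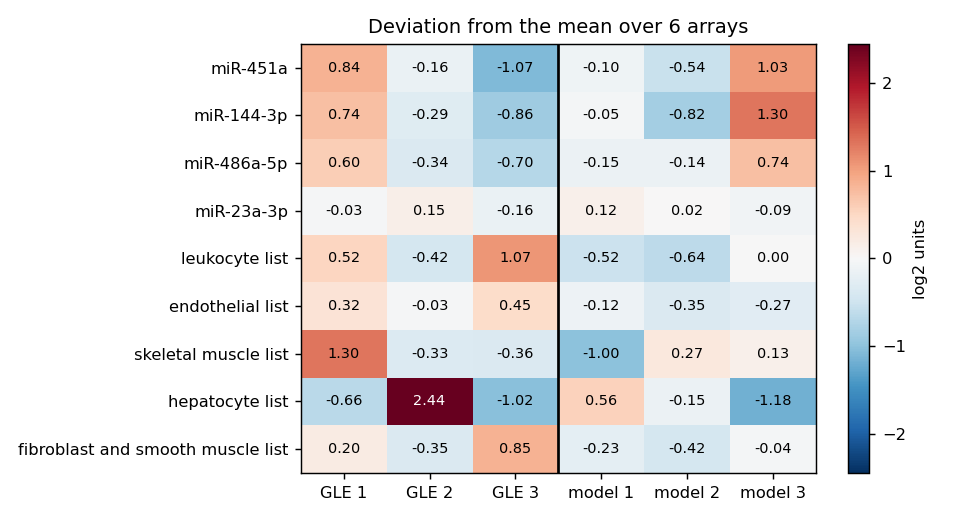
Deviation of each value from its own mean over the 6 arrays (log2 units, red above and blue below) for miR-451a, miR-144-3p, miR-486a-5p, miR-23a-3p and the mean of the tested members of each cell type list, with GLE arrays left of the line and model arrays right of it. The first 3 rows share their pattern, with model replicate 3 at 1.03, 1.30 and 0.74, while leukocyte, endothelial and fibroblast lists are highest in GLE replicate 3, the hepatocyte list in GLE replicate 2 and the muscle list in GLE replicate 1.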

How the data were processed

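The members and lists were chosen with earlier results of these data known. The intensity values were made by the authors with Agilent Feature Extraction (version 10.7.1.1, per the file headers and the submitters' processing notes); spots had background and a spatial trend removed, on a linear scale that was left unscaled between arrays. The log2 values for each miRNA that the authors deposited, with no source here for how they were made, served as an alternative only. Their column medians, −3.20, −3.32 and −3.27 in the GLE group against −3.32, −3.17 and −3.13 in the model group, are also the lowest values; the log scale was read from the data and the centring stays unknown.

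In R 4.3.3 with limma 3.58.1, control and outlier-flagged spots were dropped and the spots of a probe averaged. A probe was detected where a share over 0.5 of its spots was well above background. Scaling used the 75th percentile of the 636 probes that every array detected; values were then floored at −4.25 and logged. A miRNA was tested on the mean of those probes that every array of 1 group or both detected; untested members average both probes. limma (lmFit, eBayes, Benjamini-Hochberg over 388 miRNAs, threshold 0.05, two-sided) was tested on simulated data first. Ratios and correlations used two-sided exact permutation over 20 relabelings or 720 pairings. Named are the members, miR-23a-3p, the 5 miRNAs most like miR-451a and, of the other red cell list, the 4 of largest statistic. P-values of limma and of the ratios cover the spread between 3 tumours per group. Those of the correlations come from pairings over all 6 arrays, whatever the group. The number of arrays limits the precision.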

Additional observations from a re-analysis of the deposited data

How the results depend on the processing

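Under every setting that kept all 6 arrays, the differences of miR-451a (−0.35 to −0.18) and miR-486a-5p (−0.41 to −0.17) stayed negative and no miRNA passed the limma threshold. Pearson r of miR-451a ran from 0.88 to 0.99 with miR-144-3p and from 0.85 to 0.99 with miR-486a-5p. For miR-144-3p it ran from 0.89 to 0.95 with miR-486a-5p and from 0.94 to 1.00 with miR-144-5p. By Pearson r, these 4 correlations passed at an adjusted p of 0.05 under each such setting that was tested. By Spearman's rho, miR-486a-5p with miR-451a and with miR-144-3p did not pass in the main setting (exact permutation adjusted p = 0.0667 each). With undetected arrays tied, rho of miR-144-3p with miR-486a-5p was 0.75 (exact permutation adjusted p = 0.106), against 0.83. For miR-451a with miR-486a-5p it stayed at 0.83 (exact permutation adjusted p = 0.08). The lowest values of both miR-451a correlations came with normexp background, a setting that added an offset of 50 intensity units. The cause was not tested. The miR-451a to miR-144-3p difference of 0.022 turned to −0.17 with normexp, −0.028 with the percentile over all probes and −0.0057 with an offset in place of the floor; that of miR-451a to miR-486a-5p, 0.040, turned to −0.066 with normexp and −0.014 with the offset. miR-144-5p was at −0.49 with no floor, an alternative added after the data were seen, and at 0.096 in the authors' deposited table. With no filter on dim probes, limma gave adjusted p-values of 0.774 for miR-144-3p and 0.887 for miR-144-5p.

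With 1 array left out, the differences ran from −0.74 to 0.21 for miR-451a, −0.76 to 0.30 for miR-144-3p, −0.17 to 0.12 for miR-144-5p and −0.67 to −0.0040 for miR-486a-5p. Those of the ratios of miR-451a ran from −0.11 to 0.17 to miR-144-3p, −0.15 to 0.24 to miR-486a-5p and −0.72 to 0.27 to miR-23a-3p. Pearson r ran from 0.96 to 0.98 for miR-451a with miR-144-3p and 0.94 to 0.98 for miR-451a with miR-486a-5p. It ran from 0.87 to 0.99 for miR-144-3p with miR-486a-5p and 0.86 to 0.97 for miR-144-3p with miR-144-5p. The largest adjusted p of these was 0.06 (exact permutation over 5 arrays, fewer samples by construction). In 15 of these correlations the adjusted p was no longer under 0.05, among them every pair without GLE replicate 1, model replicate 1 or model replicate 3. Between 0 and 2 miRNAs passed, the 2 without GLE replicate 2, neither of them a member. Deviations of same-numbered tumours had an r of −0.62, −0.18 and 0.37 for replicates 1 to 3. Of the GLE tumours, only replicate 3 was closest to the model tumour of its own number. The replicate numbers were not taken as pairs, although 3 tumours a group cannot show that pairing was absent. With a replicate block, the adjusted p was 0.980 for miR-451a and for miR-486a-5p, and 0 miRNAs passed. No slide or scan block could be fitted, since all arrays shared 1 slide and scan.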
